A study of Mus musculus with 8 samples.

Results

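Heat shock proteins are molecular chaperones that fold new proteins, refold damaged ones and hold client proteins in an active form. HSP70 proteins bind unfolded stretches, J-domain proteins of the HSP40 family deliver the substrate and trigger ATP hydrolysis by HSP70, and HSP110 proteins exchange the nucleotide so that the substrate is released. HSP90 then acts on nearly folded clients such as kinases and steroid receptors, while the HSPD1 chamber with its HSPE1 lid folds proteins inside mitochondria. Under stress the transcription factor HSF1 binds repeats of the letters GAA, called heat shock elements, and switches on a subset of these genes, of which Hspa1a and Hspa1b are the classical inducible pair. Blood stem and progenitor cells are known to depend on tight control of protein quality.

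The 10 genes described here are Hspa1a, Hspa1b and Hspa8 of the HSP70 family, Hsp90aa1 and Hsp90ab1 of the HSP90 family, the HSP110 gene Hsph1, the J-domain genes Dnajb1 and Dnaja1, and the mitochondrial chaperonin pair Hspd1 and Hspe1. They were chosen by name among 37980 Ensembl gene rows, and all 10 had a row. RNA was sequenced from multipotent progenitors (MPPs) of mouse bone marrow, cells that form every blood lineage for a limited time, in 4 libraries from NA mice and 4 from wild-type (WT) mice on a C57BL/6 background. NA stands for a fusion of the nucleoporin NUP98 with the homeodomain (hd) of HOXA10, carried in NA LSL/+; Vav-Cre mice, in which Cre made in blood cells removes a stop cassette so that the fusion is expressed from the Rosa26 locus. The age of the mice, the number of mice behind each library and whether WT mice carried Vav-Cre were not given in the sources used here. Cells were sorted as Lin-CD48-ckit+Sca1+CD135+CD150-, 1000 cells per library, and their cDNA was amplified before sequencing. Each library bears the name of its group and its number (NA1 to NA4, WT1 to WT4), and group values are given as mean ± SD over n = 4 libraries.

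Values are normalised counts, that is, read counts that the authors had divided by 1 size factor per library, and depth was between 3876907 and 4916987 estimated reads. NA4, WT2 and WT3 were shallower (3876907 to 3960939 reads) than the other 5 libraries (4779627 to 4916987). The transcripts of the gate, Kit, Ly6a (Sca1) and Flt3 (CD135), lay between 1103 and 1614 normalised counts in all 8 libraries, while Cd48 did not exceed 83.8 and Slamf1 (CD150) did not exceed 47.9. Of 49 markers of other blood cells, 14 were at 0 in every library, among them Cd3e, Ms4a1 and Ly6g, and the summed level of all 49 was 5008 to 5259 in NA and 5166 to 5470 in WT libraries. Within that sum the 8 erythroid markers came to 35.4 to 64.9 in NA and 138 to 224 in WT libraries, without overlap. The 7 neutrophil markers came to 12.2 to 29.5 in NA and 11.3 to 317 in WT libraries. In the other direction, the 6 megakaryocyte markers came to 2768 to 3044 in NA and 2570 to 2717 in WT libraries. The 5 natural killer cell markers came to 145.9 to 160.6 and 119.9 to 145.0, and neither of these sums overlapped. The T cell, B cell and monocyte sums overlapped between the groups. By limma, the adult globin gene Hbb-bt was lower in NA MPPs (log2 fold change -1.99, adjusted p = 6.79e-05, and 0.00280 without NA4 and WT4), as were Cd48 (-1.58, adjusted p = 0.00711, and 0.0675 without NA4 and WT4) and Ly6a (-0.28, adjusted p = 0.0257, and 0.163). The part of these markers in the results below was not tested. Hoxa10, part of the fusion, averaged 324 ± 32.0 in NA libraries against 139 ± 8.0 in WT libraries (limma adjusted p = 2.57e-05), where reads of the fusion and of the endogenous gene are not separated, and Nup98 averaged 85.0 ± 10.9 against 72.2 ± 12.1 (adjusted p = 0.443). Xist was at 869 to 1285 in WT and at most 2.80 in NA libraries, and the Y-linked Eif2s3y at 516 to 666 in NA and at most 0.888 in WT, so sex and genotype cannot be told apart in any comparison that follows. NA4 and WT4 each lay nearer to a weighted sum of libraries 1 to 3 of their group than independent variation was estimated to allow: the variance beyond counting error was 0.00764 for NA4 and 0.00199 for WT4, where independent libraries would leave at least 0.0370 and 0.0292. WT1 (0.00747 against 0.0293), NA2 (0.0139 against 0.0369) and, narrowly, WT3 (0.0220 against 0.0225) were also below that bound. Results are therefore also given without NA4 and WT4.

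Windows around the starts of these genes were searched for the letters of heat shock elements, and binding of HSF1 was not measured. RefSeq windows of 300 bases, from 250 before to 50 after a transcription start (GRCm38.p6), were matched for 7 of the 10 genes, in 12 windows. Counts below are of genes with a match in any of their windows, while shares over all are per window, so the 2 are unlike measures. A heat shock element of 2 facing units (GAANNTTC or TTCNNGAA, each equal to its own reverse complement, so that both strands are covered) was found in windows of 6 of the 7 genes and in 15.1% of all 32851 windows. The 3-unit form, in which GAA and TTC alternate for 1 more unit after another NN, thus contains the 2-unit letters. It was found for Hspe1, Hspd1 and Hsph1, and in 0.603% of all windows. For Hsph1 it lies after the start, not before it, in both windows. Hspe1 and Hspd1 lie head to head on chromosome 1, and the same 18 bases, read on opposite strands, lie 89 bases before the Hspe1 start and 144 bases before a start of Hspd1. These bases are thus counted for both genes. The stretch before Hspe1 is chr1:55087948-55088147 (+). The Hspa1a stretch, chr17:34972157-34972356 (-), and the Hspa1b stretch, chr17:34959239-34959438 (-), differ at 1 base of 200 and carry the same element 104 bases before the start. They are shown because the 2 genes can hardly be told apart by short reads. Dnaja1 (chr4:40722268-40722467, +) and Dnajb1 (chr8:83607975-83608174, +) are shown because both were called between the groups, and of these stretches only that of Dnaja1 holds the letters. The windows of the other 2 Dnaja1 starts and of the other Dnajb1 start in the table do not. Each line gives 200 bases before the start, 5′ to 3′, with matched letters in capitals.
Hspe1: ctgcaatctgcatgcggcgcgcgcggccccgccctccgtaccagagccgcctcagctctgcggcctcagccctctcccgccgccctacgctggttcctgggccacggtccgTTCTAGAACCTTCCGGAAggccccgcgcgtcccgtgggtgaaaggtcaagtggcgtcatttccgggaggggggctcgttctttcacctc
Hspa1a: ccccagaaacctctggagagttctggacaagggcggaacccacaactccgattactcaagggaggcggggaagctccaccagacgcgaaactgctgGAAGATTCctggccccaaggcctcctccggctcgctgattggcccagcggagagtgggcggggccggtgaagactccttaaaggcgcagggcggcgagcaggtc
Hspa1b: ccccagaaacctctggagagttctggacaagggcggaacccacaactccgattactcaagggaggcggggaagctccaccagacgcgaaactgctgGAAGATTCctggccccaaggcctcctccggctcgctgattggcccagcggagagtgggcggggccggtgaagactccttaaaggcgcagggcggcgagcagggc
Dnaja1: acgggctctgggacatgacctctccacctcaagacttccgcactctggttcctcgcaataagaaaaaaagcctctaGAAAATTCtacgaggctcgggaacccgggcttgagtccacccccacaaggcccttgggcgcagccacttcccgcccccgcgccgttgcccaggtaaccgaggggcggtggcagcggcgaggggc
Dnajb1: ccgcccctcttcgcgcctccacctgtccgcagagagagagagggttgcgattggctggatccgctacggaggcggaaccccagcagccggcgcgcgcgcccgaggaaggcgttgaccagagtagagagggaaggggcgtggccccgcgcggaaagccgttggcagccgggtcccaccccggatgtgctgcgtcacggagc

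Among the 10 genes, 8 reached 10 normalised counts in at least 4 libraries and were tested, while Hspa1a and Hspa1b were not. Of the 8, Dnajb1 and Dnaja1 were higher in NA MPPs, Hspe1 was lower and 5 did not pass the threshold. Not passing does not show an absence of change. The limma intervals of these 5 genes reached down to -0.51 (Hsph1) and up to 0.35 (Hsp90aa1) in log2 fold change. The test was limma on log2(normalised count + 1), with Benjamini-Hochberg adjustment over all 11451 genes that reached that level and a threshold of 0.05, and fold changes below are on that log2 scale, NA minus WT. By the same rule 17.9% of all tested genes were called, 10.1% as higher and 7.87% as lower. The median log2 fold change was -0.042 over the 8 genes and -0.011 over all tested genes, and the median size of change, without its sign, was 0.18 and 0.28. NA and WT libraries were fully separated for 2 of the 8 genes (Dnaja1 and Hspe1), against 22.0% of all tested genes. Without NA4 and WT4 4.58% of all tested genes were called and none of the 8 was by limma, although Dnajb1 and Hspe1 kept an unadjusted p below 0.05. In bulk samples, fewer cells that express a gene and less RNA of it per cell cannot be told apart.

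**Figure D1:**
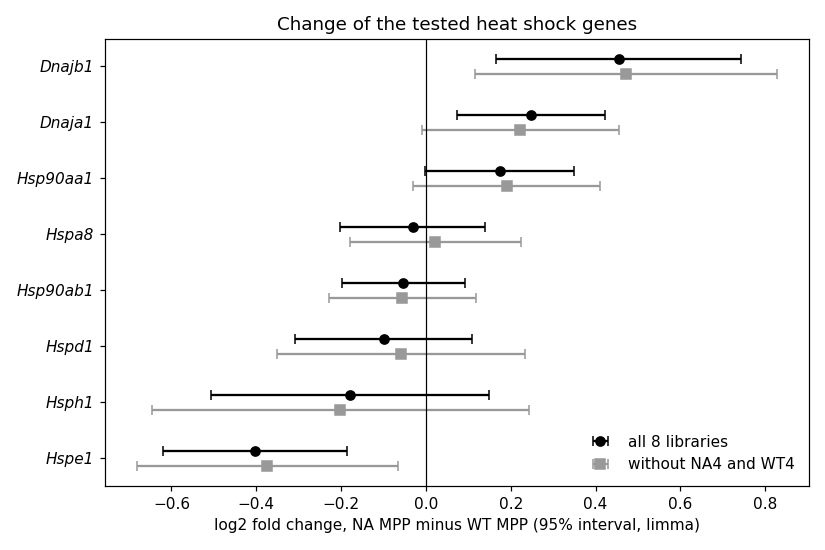
Log2 fold change, NA MPP minus WT MPP, of the 8 tested heat shock genes (points) with the 95% interval from limma (bars), over all 8 libraries (black circles) and without NA4 and WT4 (grey squares). Over all 8 libraries Dnajb1 at 0.45 and Dnaja1 at 0.25 lie to the right, Hspe1 at -0.40 to the left, and the intervals of the other 5 genes include 0. Without NA4 and WT4 the interval of Dnaja1 (-0.0088 to 0.45) includes 0 as well.

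The levels per kilobase of transcript, which depend on the transcript length chosen, spanned a wide range. In WT MPPs Hsp90ab1 was at 4722 ± 299 normalised counts per kilobase, Hspa8 at 1998 ± 165, Hspe1 at 629 ± 44.2, Hsp90aa1 at 595 ± 50.2, Dnajb1 at 270 ± 59.1, Dnaja1 at 266 ± 22.8, Hspd1 at 214 ± 18.0 and Hsph1 at 65.0 ± 12.4 (SD, n = 4). Hspe1 and Hsp90aa1 were within their spread of each other, as were Dnajb1 and Dnaja1. Lengths were those of the longest coding transcript. At a shorter coding transcript the WT level would be 443 for Dnaja1 (3376 bases), 685 for Hsp90aa1 (2852 bases) and 2369.5 for Hspa8 (2019 bases). It would be 283 for Dnajb1 and 80.9 for Hsph1. How Hspe1 compares with Hsp90aa1, and Dnajb1 with Dnaja1, thus depends on the length chosen. Windows that also occur in other transcripts, described below for several genes, limit such comparisons too. In NA MPPs Hsp90aa1 (671 ± 40.0) stood above Hspe1 (475 ± 28.3), Dnajb1 was at 364 ± 30.5 and Dnaja1 at 315 ± 11.7. Together the 10 genes held 0.469% to 0.501% of NA libraries and 0.491% to 0.539% of WT libraries. The constitutive genes Hsp90ab1 and Hspa8 made up 71.2% to 73.7% of that sum in NA and 74.3% to 76.2% in WT libraries.

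**Figure D2:**
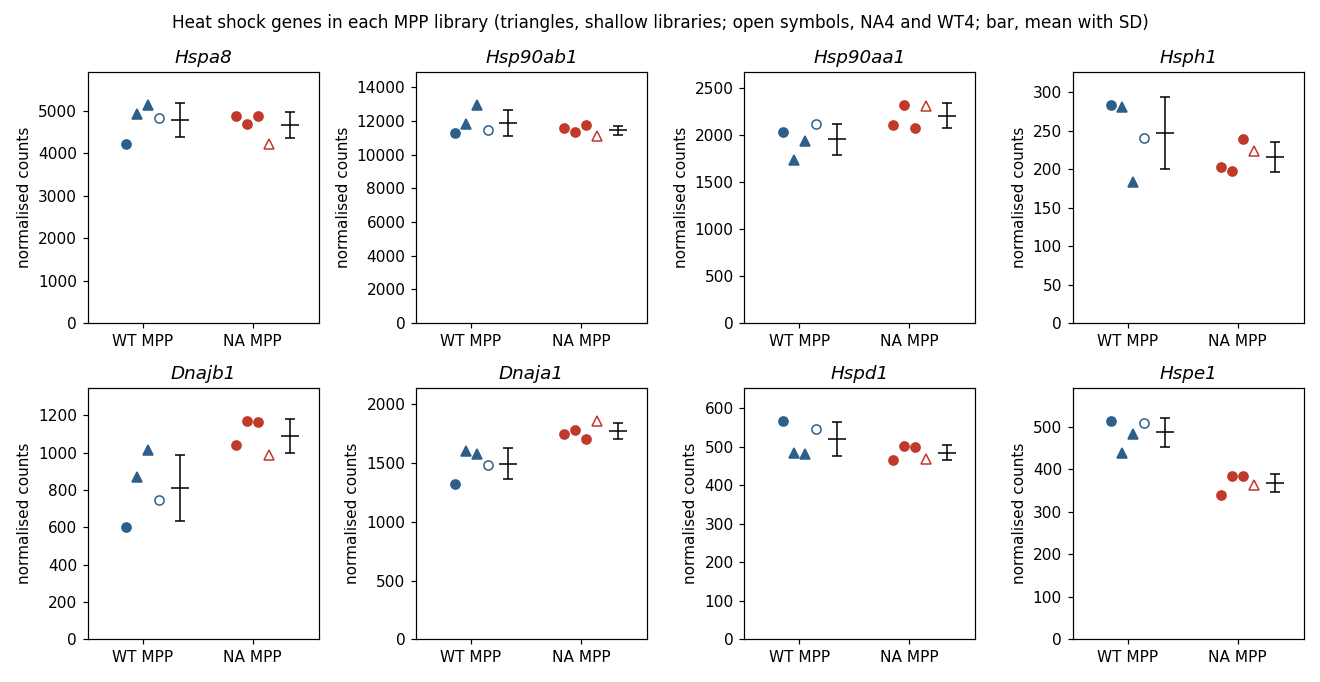
Normalised counts of the 8 tested heat shock genes (vertical axes, each from 0) in the 4 WT MPP and 4 NA MPP libraries. Points are libraries in numerical order, triangles are the shallower libraries, open symbols are NA4 and WT4, and the bar is the mean with its SD. NA values lie above all WT values for Dnaja1 and below all of them for Hspe1, and the groups overlap in the other 6 panels.

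The inducible HSP70 genes were at or near 0 in every library. Hspa1a (ENSMUSG00000091971, chr17:34969190-34972156, mm10) was listed at 0 in NA1, NA2 and NA3 and at 1.18 normalised counts in NA4, and at 0, 2.26, 0 and 0.888 in WT1 to WT4. Hspa1b (ENSMUSG00000090877, chr17:34956436-34959238) was at 0 in all 4 NA libraries and at 3.55, 0, 0 and 2.66 in WT1 to WT4. Of all 50-base windows of the Hspa1a transcript 66.3% also occur in transcripts of other genes, mostly Hspa1b, so that the split of reads between them is uncertain, and the sum is the safer measure. The sum came to 0, 0, 0 and 1 estimated reads in NA1 to NA4 and 4, 2, 0 and 4 in WT1 to WT4. Both genes fell under the low-value filter and were not tested. A count of 0 allows up to 3 reads, or 2.66 to 3.54 normalised counts, and this floor is 0.055% to 0.084% of Hspa8 in the same library. Such a limit takes in counting error alone, because reads of amplified cDNA are not independent molecules.

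Hspa8 (chr9:40800984-40810087), the constitutive HSP70 of the cytosol, did not pass the test. It was at 4890, 4693, 4892 and 4232 normalised counts in NA1 to NA4 and at 4226, 4923, 5150 and 4838 in WT1 to WT4. The groups overlapped over most of their range, and NA4 and WT1 were the low libraries. The log2 fold change was -0.03 (SE 0.080, 95% interval -0.20 to 0.14, limma adjusted p = 0.823), and its sign turned when NA4 (0.016) or WT3 (0.0054) was left out. Of its 50-base windows 74.8% also occur elsewhere, mostly in a processed copy, Gm15459.

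The HSP90 genes did not pass the test either. Hsp90ab1 (chr17:45567775-45573271), the constitutive isoform, was at 11605, 11328, 11757 and 11116 normalised counts in NA1 to NA4 and at 11287, 11841, 12978 and 11493 in WT1 to WT4. Only WT3 stood above the rest (log2 fold change -0.05, SE 0.068, 95% interval -0.20 to 0.09, limma adjusted p = 0.620). Hsp90aa1 (chr12:110690605-110702728), the isoform that stress can raise, was at 2105, 2320, 2071 and 2308 in NA1 to NA4 and at 2028, 1733, 1937 and 2117 in WT1 to WT4. The groups overlapped, since WT4 lay above NA1 and NA3 (log2 fold change 0.17, SE 0.082, 95% interval -0.0023 to 0.35, adjusted p = 0.160). The difference was 0.06 among the deeper and 0.33 among the shallower libraries, and 0.04 (adjusted p = 0.705) with the trend in transcript GC content removed from each library. Of the Hsp90aa1 windows 58.5% also occur in other transcripts. The ratio of Hsp90aa1 to Hsp90ab1 was 0.192 ± 0.016 in NA against 0.165 ± 0.020 in WT libraries (exact two-sided permutation p = 0.143, 0.190 adjusted over 4 ratios), with a log2 difference of 0.04 among the deeper and 0.49 among the shallower libraries.

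The J-domain gene Dnajb1 (chr8:83608193-83612653), whose protein works with HSP70 to pull apart aggregates and is itself a target of HSF1, was higher in NA MPPs. It was at 1043, 1170, 1165 and 986 normalised counts in NA1 to NA4 and at 602, 871, 1017 and 745 in WT1 to WT4. WT libraries were spread widely, and WT3 lay above NA4. NA libraries averaged 1091 ± 91.5 against 809 ± 177 in WT libraries, and the log2 fold change was 0.45 (SE 0.135, 95% interval 0.17 to 0.74, limma adjusted p = 0.0318). The difference of mean log2 values was 0.75 among the deeper libraries (NA1 to NA3 against WT1 and WT4) and 0.068 among the shallower ones (NA4 against WT2 and WT3). It held its call in 11 of 19 alternatives, and lost it when NA2, NA3, NA4, WT1 or WT4 was left out (adjusted p = 0.0501 to 0.0869) and without NA4 and WT4 (0.47, adjusted p = 0.124). In the WT libraries the summed level of 33 immediate early genes was 12609, 34156, 28311 and 21648 in WT1 to WT4. It was lowest in WT1, where Dnajb1 was also lowest, but highest in WT2, while Dnajb1 was highest in WT3. In NA1 to NA4 the sum was 58835, 66204, 72901 and 62445, lowest in NA1, while Dnajb1 was lowest in NA4. The part of these genes in the result was not tested.

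Dnaja1 (chr4:40722150-40737149), a broadly used partner of cytosolic HSP70, was higher by a smaller margin. It was at 1746, 1783, 1703 and 1858 normalised counts in NA1 to NA4 and at 1320, 1605, 1575 and 1483 in WT1 to WT4. Every NA value was above every WT value. NA libraries averaged 1773 ± 65.5 against 1496 ± 128 in WT libraries, and the log2 fold change was 0.25 (SE 0.082, 95% interval 0.07 to 0.42, limma adjusted p = 0.0486), with a difference of 0.32 among the deeper and 0.22 among the shallower libraries. The call held in 7 of 19 alternatives. It was lost on leaving out any 1 of NA1, NA2, NA4 and of WT1, WT3, WT4 (adjusted p = 0.0540 to 0.144), under total count scaling (0.18, adjusted p = 0.113), without NA4 and WT4 (0.22, adjusted p = 0.269), and when a trend with transcript GC content was removed from each library (0.08, adjusted p = 0.528). Dnaja1 shares 608 exon bases with Smu1 on the opposite strand, which averaged 647 in NA against 672 in WT libraries (log2 fold change -0.06, limma adjusted p = 0.694). Whether counting used strand was not given in the sources used here. Of the 50-base windows of Dnaja1, 28.8% also occur in other transcripts, most of all in Gm15542 (15.7%). The ratio of Dnajb1 to Dnaja1 was 0.617 ± 0.068 in NA against 0.537 ± 0.081 in WT libraries (exact two-sided permutation p = 0.200, adjusted 0.200). Its log2 difference was 0.43 among the deeper and -0.16 among the shallower libraries.

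Of the mitochondrial chaperonin genes, Hspe1 was lower in NA MPPs and Hspd1 did not pass the test. Hspe1 (chr1:55088132-55091307), which encodes the lid, was at 338.9, 384.5, 385.0 and 362.6 normalised counts in NA1 to NA4 and at 514.0, 439.4, 483.9 and 509.6 in WT1 to WT4. Every NA value was below every WT value. NA libraries averaged 368 ± 21.9 against 487 ± 34.2 in WT libraries, and the log2 fold change was -0.40 (SE 0.102, 95% interval -0.62 to -0.19, limma adjusted p = 0.0145), with -0.47 among the deeper and -0.35 among the shallower libraries. The call held in 17 of 19 alternatives, and was lost without WT4 (-0.38, adjusted p = 0.0627) and without NA4 and WT4 (-0.37, adjusted p = 0.158).

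Hspd1 (chr1:55077835-55088243), which encodes the folding chamber, was at 465.8, 502.0, 498.6 and 467.7 normalised counts in NA1 to NA4 and at 566.4, 483.6, 480.5 and 546.0 in WT1 to WT4. The groups overlapped (log2 fold change -0.10, SE 0.098, 95% interval -0.31 to 0.11, limma adjusted p = 0.514). Within libraries the ratio of Hspd1 to Hspe1 was 1.37, 1.31, 1.29 and 1.29 in NA1 to NA4 and 1.10, 1.10, 0.993 and 1.07 in WT1 to WT4. The groups did not overlap in this ratio, which does not depend on scaling between libraries. It was 1.23-fold higher in NA MPPs (log2 difference 0.30, SE 0.041, exact two-sided permutation p = 0.0286, the smallest that 70 assignments allow, and 0.0571 adjusted over 4 ratios, above the threshold). The difference was 0.29 among the deeper and 0.30 among the shallower libraries, and 0.32 without NA4 and WT4. The exons of the 2 genes share 112 bases on opposite strands, and of the 50-base windows of each, 44.8% also occur in other transcripts, mainly processed copies.

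Hsph1 (chr5:149614287-149636376), the HSP110 exchange factor, was at 202.6, 197.4, 240.1 and 223.2 normalised counts in NA1 to NA4 and at 284.1, 280.9, 183.3 and 240.6 in WT1 to WT4. WT3 lay below every NA library, WT1 and WT2 well above them and WT4 just above NA3, the highest of them (log2 fold change -0.18, SE 0.153, 95% interval -0.51 to 0.15, limma adjusted p = 0.449). Hspa4, a related HSP110 gene, averaged 614 ± 75.9 in NA libraries against 462 ± 101 in WT libraries (log2 fold change 0.43, adjusted p = 0.0550). The ratio of Hsph1 to Hspa4 was 0.349, 0.361, 0.333 and 0.366 in NA1 to NA4 and 0.831, 0.477, 0.400 and 0.526 in WT1 to WT4. NA libraries were close to each other and below every WT library (log2 difference -0.61, SE 0.227, exact two-sided permutation p = 0.0286, adjusted 0.0571). WT1 weighed most, and without it the difference was -0.40. It was -0.93 among the deeper and -0.26 among the shallower libraries.

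**Figure D3:**
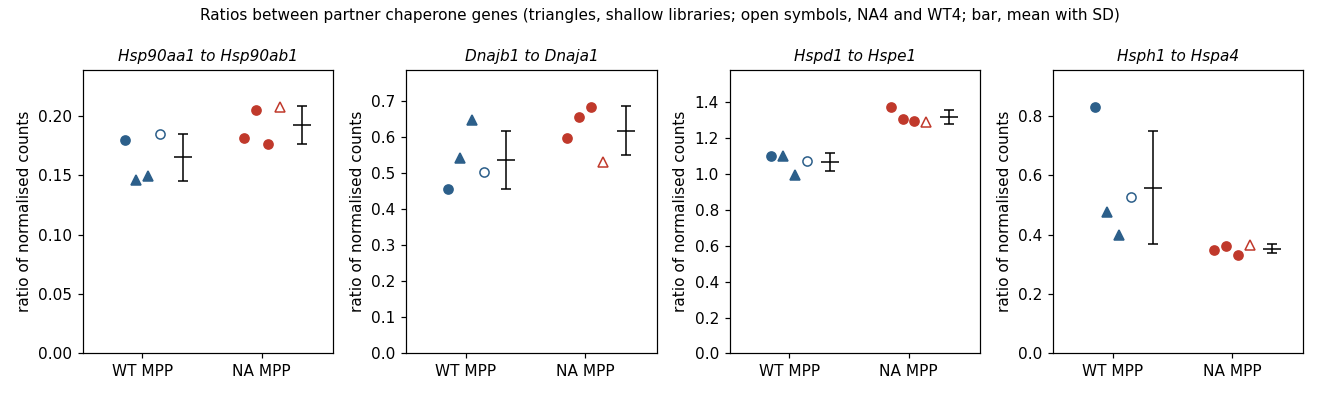
Ratio of normalised counts of partner chaperone genes (vertical axes, each from 0) in each WT MPP and NA MPP library. Triangles are the shallower libraries, open symbols are NA4 and WT4, and the bar is the mean with its SD. The groups do not overlap for Hspd1 to Hspe1 or for Hsph1 to Hspa4, where WT1 at 0.831 stands apart.

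Among the regulators of the heat shock response, Hsf2 was called higher, while Hsf1 and Hsbp1 did not pass. Hsf1 averaged 171 ± 20.5 normalised counts in NA against 216 ± 41.7 in WT libraries (log2 fold change -0.32, limma adjusted p = 0.182). Hsf2, a related factor, averaged 135 ± 27.3 against 79.1 ± 29.8 (0.81, adjusted p = 0.0363), with overlap between the groups. Its call held in only 8 of 19 alternatives, and was lost without NA4 and WT4 (0.74, adjusted p = 0.217). Hsbp1, which binds HSF1 and restrains it, averaged 575 ± 93.1 against 652 ± 38.7 (-0.19, adjusted p = 0.272). Of 17 tested genes among 23 other known targets of HSF1, 3 were higher by limma (Ptges3, St13 and Cacybp) and none lower, where 10.1% of all tested genes were called higher and 7.87% lower, and the median log2 fold change was 0.16. Without NA4 and WT4, Ptges3 stayed called, and St13 (adjusted p = 0.0705) and Cacybp (adjusted p = 0.0860) did not. At an unadjusted p below 0.05, 6 were higher and 2 lower. The share of all tested genes at that unadjusted level is not given here, so this count and those like it below have no baseline. Ptges3 and St13 are also counted in the families that follow.

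Other chaperone genes were counted by family. Over all these lists, with the heat shock factors and the other HSF1 targets included, 129 genes apart from the 10 were listed and 105 tested. Of these 13 were higher and 7 lower, or 19.0%, near the 17.9% of all tested genes, and the median log2 fold change was 0.02. Without NA4 and WT4 3 were higher and 1 lower. Of 30 tested J-domain genes 5 were higher and 3 lower, or 26.7%. Dnajc21, which acts in ribosome maturation, averaged 167 ± 13.4 in NA against 59.9 ± 21.0 in WT libraries (log2 fold change 1.55, limma adjusted p = 0.00136, and 0.0125 without NA4 and WT4). Dnajc2, which sits on the ribosome, averaged 599 ± 53.5 against 402 ± 29.2 (0.57, adjusted p = 0.00193). Dnajb6, which restrains aggregation, rose by 0.37 (adjusted p = 0.0411). Dnajc16 (-0.88), Dnajc7 (-0.84), which bridges HSP70 and HSP90, and Dnajc6 (-0.75), which uncoats clathrin vesicles, were lower (adjusted p = 0.0187, 0.0126 and 0.0248). Without NA4 and WT4, Dnajc2 kept its call (adjusted p = 0.0498), while Dnajb6, Dnajc16, Dnajc7 and Dnajc6 lost theirs (0.172, 0.164, 0.0681 and 0.114).

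None of the 6 other HSP70 family genes tested passed by limma, with 2 higher (Hspa2, Hspa4) and 1 lower (Hspa9) at an unadjusted p below 0.05. Of 11 HSP70 exchange factors and regulators, St13, which stabilises the substrate-bound state, was higher (1682 ± 133 against 1246 ± 170 normalised counts, log2 fold change 0.44, limma adjusted p = 0.00996), and the exchange factor Hspbp1 was lower (187 ± 26.9 against 307 ± 44.6, -0.71, adjusted p = 0.00557). Of 24 HSP90 cochaperones 2 were higher and 1 lower by limma, or 12.5%, against 17.9% of all tested genes. At an unadjusted p below 0.05, 3 were higher and 6 lower. Ptges3, known as p23, which holds HSP90 in its closed state, averaged 2250 ± 161 in NA against 1289 ± 79.5 in WT libraries, with every NA value above every WT value (0.80, adjusted p = 1.82e-05, and 0.000838 without NA4 and WT4). Sugt1 was higher (0.49, adjusted p = 0.0198) and Ttc4 lower (-0.46, adjusted p = 0.0204). St13, Hspbp1, Sugt1 and Ttc4 were not called without NA4 and WT4 (adjusted p = 0.0705, 0.0881, 0.109 and 0.108).

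Immediate early genes, which respond within minutes to stimulation or to handling of cells, were mostly higher in NA MPPs. Of 30 tested, 21 were called higher and none lower, against 10.1% of all tested genes called higher. Their median log2 fold change was 1.19. At an unadjusted p below 0.05 by limma, 27 were higher and 0 lower. Fos averaged 20437 ± 665 normalised counts in NA against 2248 ± 1125 in WT libraries (log2 fold change 3.37, limma adjusted p = 7.46e-06). Egr1 rose by 2.64 (adjusted p = 7.00e-07) and Fosb by 2.83 (adjusted p = 0.00123). Without NA4 and WT4 11 were higher and none lower.

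**Figure D4:**
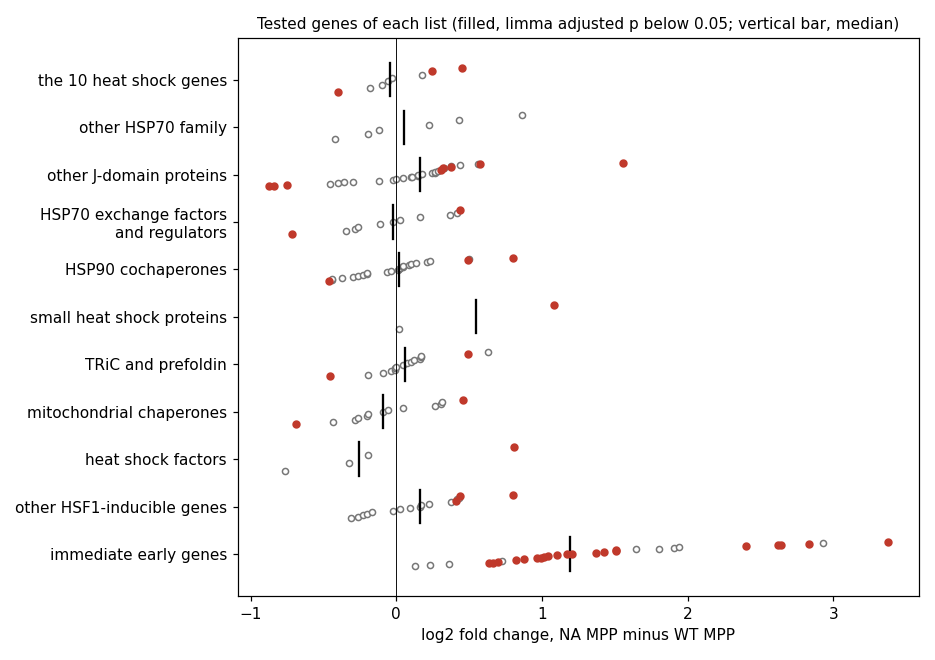
Log2 fold change, NA MPP minus WT MPP, of the tested genes of each list (1 point per gene; filled, adjusted p below 0.05 by limma; vertical bar, median of the list). The heat shock genes and other chaperone lists lie on both sides of 0, and the immediate early genes lie to the right with a median of 1.19.

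The tested genes whose pattern over the 8 libraries was most like each heat shock gene were found from the root-mean-square difference of log2 values, each gene centred on its own mean. They were Rps6 for Hspa8 (0.047), Ccndbp1 for Hsp90aa1 (0.051), Srebf2 for Hsp90ab1 (0.041), Mdm4-ps for Hsph1 (0.064), Cirbp for Dnajb1 (0.093), Canx for Dnaja1 (0.046), Akap13 for Hspe1 (0.040) and Ap3b1 for Hspd1 (0.030). These are descriptions over 8 libraries that share their depth and scaling, and none was another member of the 10, which were left out of the search.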

How the data were processed

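Per the labels and the methods of the study, the authors sequenced polyA RNA of sorted MPPs from amplified cDNA, called bases with bcl2fastq, quantified genes with RSEM on mm10 and normalised them with DESeq2. Versions, annotation and strand use were not given in the sources used here. The deposited values form a normalised signal: RSEM counts that had been divided by 1 size factor per library. Low values came in steps of 0.888 to 1.18, by library. Between 98.2% and 98.7% of values of up to 200 reads lay within 0.02 reads of a whole multiple of the step, and dividing by it gave the depth.

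Gene symbols, coordinates and transcripts came from GENCODE M21 (same build as mm10) and named 93.8% of the rows above 0. NA and WT were compared by limma (version 3.58.1, R version 4.3.3), applied to log2 of the normalised count plus 1 with a mean-variance trend and no covariate, in genes with at least 10 in at least 4 of 8 libraries. The pseudocount of 1 understates changes of low genes. The planned tests on whole counts were not run, because fractional RSEM values remained. The planned ratio of the sum of Hspa1a and Hspa1b to Hspa8, and the test of that sum, were left out because the sum lay near the floor. Ratios of the other 4 gene pairs were compared by exact permutation tests.

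Members and lists were chosen with earlier results of these data known. Named genes were the members, up to 3 highest and 3 lowest called genes of each list, Hsf1, Hsf2, Hsbp1, Hspa4, the fusion genes, sex-linked genes and the nearest pattern of each member. The labels do not say that libraries came from separate mice, so p-values measure only the spread between these libraries, which may be technical.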

Additional observations from a re-analysis of the deposited data

How the results depend on the processing

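In 19 alternatives the directions of the 8 tested heat shock genes were kept, except for Hspa8, whose log2 fold change turned to 0.016 without NA4, 0.0054 without WT3 and 0.023 without both NA4 and WT4, with a range of -0.090 to 0.016 when 1 library was left out. The 3 called genes became 1 with no filter on low values and 1 with no variance trend (0 higher in both), and 0 without NA4 and WT4 (0 higher, 0 lower). The 2 higher genes became 1 under total count scaling, 1 under the GC correction and 1 with the replicate number as a block. Leaving out 1 library gave 0 to 3 called members (0 to 2 higher, 0 to 1 lower), 9 to 23 called genes of the chaperone lists (5 to 14 higher, 4 to 9 lower) and 1125 to 2176 called genes in all (675 to 1186 higher, 450 to 1001 lower). The 20 called list genes became 13 (8 higher) with no variance trend and 4 (3 higher, 1 lower) without NA4 and WT4, and the 7 lower ones became 12 under total count scaling. Of all genes, 524 were called without NA4 and WT4 (379 higher, 145 lower), 595 were lower with no variance trend, and total count scaling gave 925 higher and 1314 lower in place of 1152 and 901. The cause of these shifts was not tested, beyond the fewer libraries in each fit. No ratio passed under any alternative, and with 3 libraries against 3 no exact p below 0.1 was possible. With 4 against 4 the smallest exact permutation p was 0.0286. The ratios of Hspd1 to Hspe1 and Hsph1 to Hspa4, both at that value, were at 0.0571 after adjustment over 4 ratios. Full separation of these alone could therefore not pass, and their failure to pass decides nothing about them.

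Whether replicate numbers pair the libraries was not tested. Same-numbered deviations correlated at 0.0874, 0.0271, 0.0131 and 0.158, and differently numbered ones at -0.0943 to 0.101. The fit with the replicate block called 2004 genes, and Dnaja1 had an adjusted p of 0.0565. For ratios the paired sign-flip test could not go below 0.125. Tests on whole counts by the 2 planned count tools were not run, because some values stayed fractional and the deposited table did not pass as whole reads. Depth limits Hspa1a and Hspa1b, where a difference was not detectable.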

Other observations

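Chaperone families outside the cytosolic HSP70 and HSP90 cycles showed a few calls in opposite directions. Of 16 tested genes of the TRiC ring, which folds actin and tubulin, and of prefoldin, its delivery complex, 1 was higher and 1 lower by limma. These calls were 12.5% of the 16 genes, against 17.9% of all tested genes. The ring subunit Cct6a averaged 608 ± 33.7 normalised counts in NA against 435 ± 63.0 in WT libraries (SD, n = 4; log2 fold change 0.49, adjusted p = 0.00872, and 0.0780 without NA4 and WT4). Its ring partner Cct3 averaged 1185 ± 51.4 against 1625 ± 112 (-0.45, adjusted p = 0.00170, and 0.0268 without NA4 and WT4), with no overlap between the groups.

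Of 13 tested mitochondrial chaperone and protease genes apart from Hspd1 and Hspe1, Clpx, the unfoldase of a matrix protease, was higher (0.46, adjusted p = 0.0144) and Trap1, the mitochondrial HSP90, was lower (-0.69, adjusted p = 0.0209) by limma. Neither was called without NA4 and WT4 (adjusted p = 0.160 and 0.150). The calls over all 8 libraries were 15.4% of the 13 genes, against 17.9% of all tested genes. Of 10 small heat shock protein genes 2 were tested, and Hspb6 averaged 79.3 ± 17.2 in NA against 37.2 ± 10.3 in WT libraries (1.08, adjusted p = 0.0139, and 0.120 without NA4 and WT4).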
